A study of Mus musculus with 6 samples.

Results

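Splicing regulators are the RNA-binding proteins that decide which exons of a pre-mRNA are kept. Their abundance and their own splicing were described in quadriceps muscle of mice carrying the human glucocorticoid receptor variant rs6190, copied into their own gene, and of mice with the reference allele. The set was chosen by gene symbol. It comprised every measured SR protein gene (Srsf), every hnRNP gene (Hnrnp, without pseudogenes), and Tra2a, Tra2b, Ptbp1, Ptbp2, Mbnl1, Mbnl2, Celf1, Celf2, Rbfox1, Rbfox2, Rbm20 and Rbm24. It held 43 of the 33641 gene symbols and 385 of the 105129 isoform rows. Of these genes, 42 reached 1 TPM (transcript abundance, corrected for transcript length and scaled to the same total in each library) in at least 3 libraries, as did 11099 genes in all. Srsf12 did not, with at most 0.02 TPM in any library.

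There were 6 libraries of poly-A selected, stranded RNA-seq. Of these, 3 came from male mice homozygous for the variant (labelled rs6190 allele +/+, here homozygous) and 3 from males with the reference allele on both chromosomes (ref allele +/+, here WT). All mice were 4 months old, by the study's design about 16 weeks, were littermates from heterozygous parents, and gave whole quadriceps at about ZT4. The allele is carried in every cell of the animal. As whole muscle was taken, the libraries mix the RNA of muscle fibres with that of the other cells of the muscle. No label ties a library to a litter or an animal number, so p-values measure the spread between these libraries.

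SR proteins carry domains rich in arginine and serine, bind exonic enhancers and mostly promote exon inclusion. Many hnRNPs, among them the polypyrimidine tract binding proteins, oppose them as silencers. In skeletal muscle, the Mbnl and Celf families act against each other on the switch from fetal to adult isoforms, while Rbfox1, Rbm20 and Rbm24 direct the splicing of genes for contraction and calcium handling. Many of these regulators control their own level by splicing their transcripts into forms that hold a premature stop codon and are degraded by nonsense-mediated decay.

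The libraries had the profile of fast muscle. The summed level of 12 fast-fibre markers was 96655 to 131360 TPM in homozygous muscle and 116270 to 231890 TPM in WT, with no marker at 0. WT replicate 3 stood apart. Its correlation with the other libraries was 0.951 to 0.965, against 0.972 to 0.987 between the others, and its annotated retained-intron transcripts made up 3.23% of TPM, against 1.84% to 2.14% elsewhere. It also held the highest fast-fibre sum, the lowest slow-fibre sum and the lowest regulator levels. The median regulator lay 0.31 below its own mean over the libraries there, on the log2 scale. The median over all tested genes was 0.28 below, so most of this drop was shared by the whole table. Changes printed here that moved by over 1.5 times without it are given both ways.

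The regulators spanned a wide range of abundance. Hnrnpa2b1, which packages nascent RNA and sorts RNA within the cell, led the set with a mean of 256 TPM over all libraries and 15.5% of all regulator TPM. Its lowest library, at 235 TPM, lay above the highest library of any other regulator. Mbnl1 followed with 89.0 TPM, then Hnrnpk with 86.4 TPM, Hnrnpab with 79.2 TPM and Srsf5 with 77.8 TPM. From Mbnl1 downwards, the ranges of neighbours in this order overlapped throughout. The muscle regulators Rbfox1 and Rbm24 stood in the upper part of the range, at 46.8 to 63.3 TPM and 44.0 to 56.7 TPM. Ptbp1, a repressor whose level falls as muscle and nerve mature, was the lowest of the tested regulators, at 4.74 to 9.40 TPM. Its paralogue Ptbp2 was at 8.28 to 13.5 TPM.

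**Figure D1:**
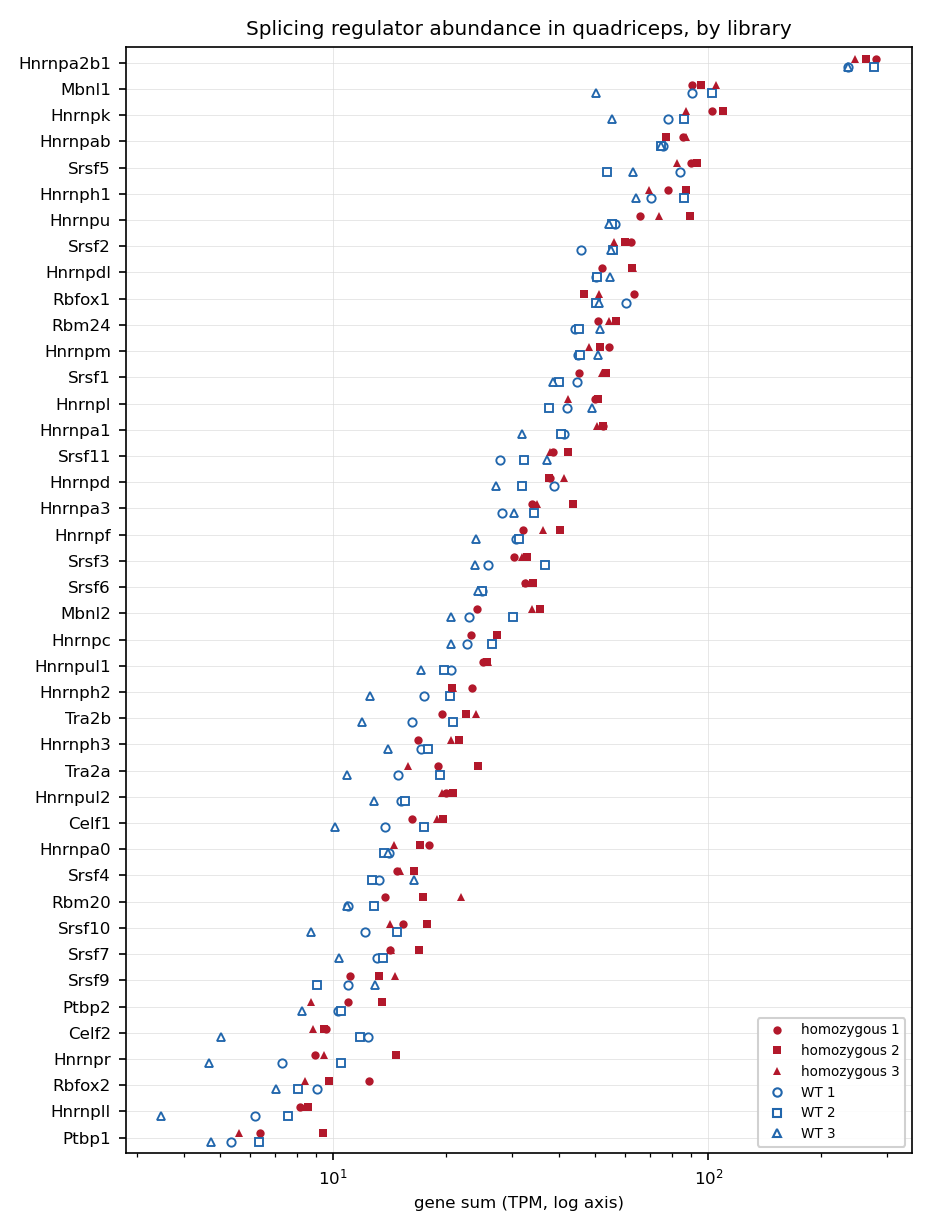
Gene sums of the 42 tested regulators in TPM (log axis), ordered by mean, with 1 point per library. Hnrnpa2b1 lies alone at the top, between 235 and 280 TPM, and Ptbp1 is lowest, between 4.74 and 9.40 TPM.

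Summed over the set, the regulators took up 1760, 1863 and 1734 TPM in homozygous muscle and 1528, 1611 and 1385 TPM in WT. The means were 1786 ± 68.1 and 1508 ± 114 (SD, n = 3 each), and the groups did not overlap. The number of transcripts above 0 differed in the same way, at 51099, 50660 and 49277 against 48546, 47521 and 43986, and the mitochondrial share of TPM ran from 20.9% to 27.3% in homozygous muscle and from 14.3% to 33.9% in WT. Their part in the regulator levels was not tested. The 10 SR proteins summed to 354, 381 and 351 TPM against 303, 294 and 291 TPM. The 20 hnRNPs summed to 1069, 1121 and 1027 TPM against 914, 982 and 851 TPM. The SR sums were close together within each group, while the hnRNP sums ran over a wider range in WT. After quantile normalization, which gives every library the same distribution of values, the median log2 fold change was 0.02 over the SR genes, with 5 of 10 positive, and 0.005 over the hnRNP genes, with 10 of 20 positive. The 8 Mbnl, Celf, Rbfox and Rbm genes summed to 281, 291 and 302 TPM against 264, 278 and 207 TPM. In whole muscle, fewer cells of a type and less RNA per cell cannot be told apart.

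Gene by gene, none of the 42 regulators passed a Benjamini-Hochberg adjusted p under 0.05 in limma, which called 0% of all 11099 genes (0 genes). At an unadjusted p under 0.05 there were 8 of the 42, against a background of 24.3%. The smallest adjusted p was 0.168. Of the 42 log2 fold changes (of TPM + 1, homozygous minus WT), 41 were positive and 1, that of Rbfox1, was negative. Their median was 0.29, and the median of all tested genes was 0.26. In 16 regulators every homozygous library was above every WT library, which is 38.1% of the set against a background of 34.7%, and in 0 every one was below (background 0.73%). Without WT replicate 3 there were 22 of 42 above, against 42.1% of all genes. After quantile normalization 23 fold changes were positive, the median was 0.01 (-0.01 over all genes, a shift of the whole table), and 5 regulators lay above and 1 below (backgrounds 8.05% and 7.34%). The direction of single regulators depended on this scaling and on other settings, such as leaving out 1 library. Of the 34 regulators described by name, 11 kept their sign under all 14 other settings: Srsf5, Srsf6, Srsf10, Tra2b, Hnrnpa1, Hnrnpk, Hnrnpll, Hnrnpu, Hnrnpul2, Celf1 and Rbm20. The other 23 changed sign under 1 or more. The 34 include the 5 highest and 5 lowest fold changes, and the share of all genes that kept their sign is not given. Outside these 34, Hnrnpul1, Hnrnph2 and Hnrnpf also kept theirs.

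**Figure D2:**
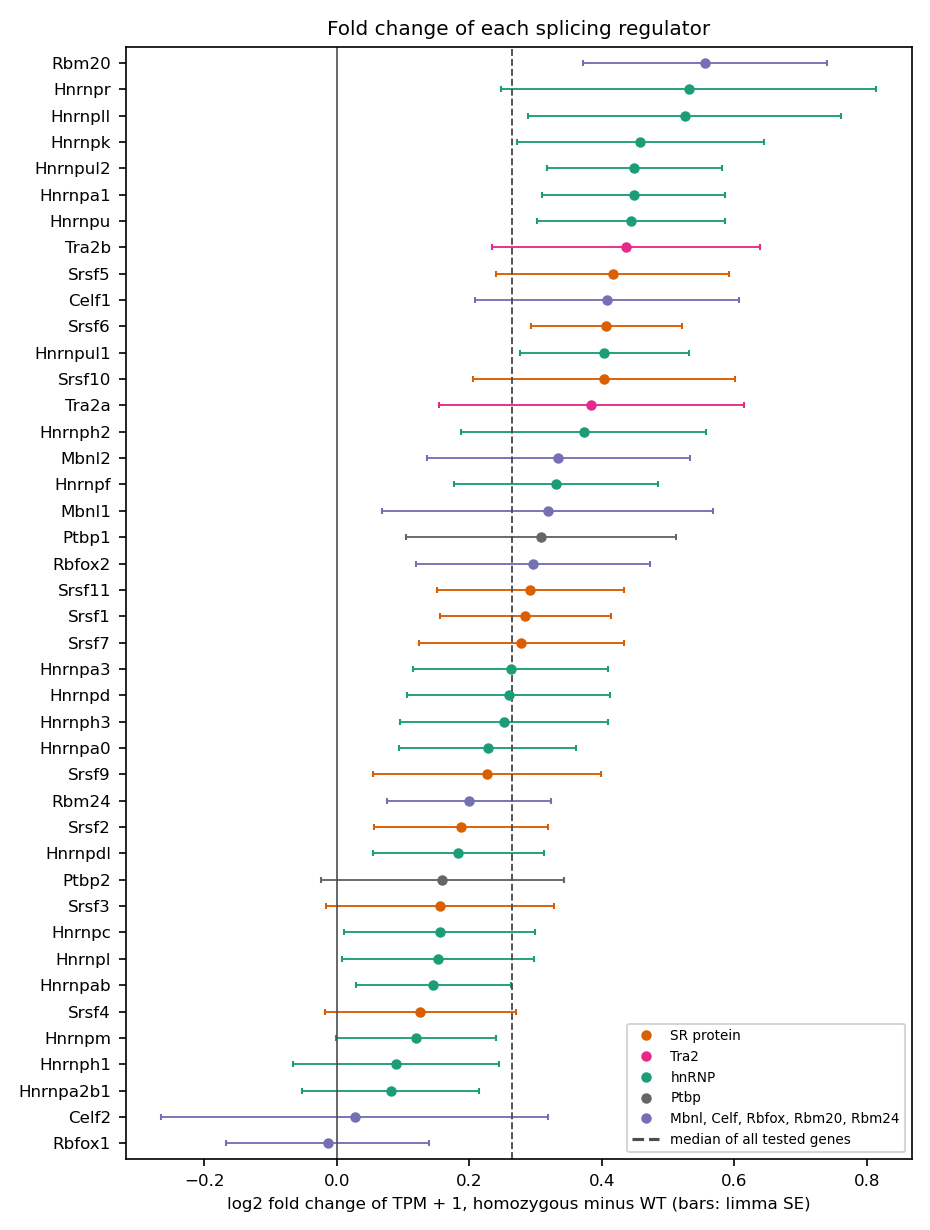
Log2 fold change (of TPM + 1, homozygous minus WT) of each tested regulator, with bars of 1 limma standard error and colours by family. The dashed line marks the median of all tested genes, 0.26, and the regulators lie on both sides of it, from -0.01 for Rbfox1 to 0.56 for Rbm20.

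Of the SR proteins, Srsf6 separated the groups most cleanly. Srsf6, which binds exonic enhancers and represses its own transcript through a poison exon, was at 32.5, 34.2 and 32.6 TPM in homozygous muscle and at 24.9, 25.0 and 24.3 TPM in WT. The gap between the groups was larger than the range within either. Its log2 fold change was 0.41 (SE 0.11, limma adjusted p = 0.168). With libraries weighted by their fit (array weights, which give WT replicate 3 the lowest weight), its adjusted p in limma was 0.043. Under that weighting 5 regulators passed, against a background of 7.3%: Srsf6, Rbm20, Srsf11, Hnrnpu and Hnrnpul2, all higher in homozygous muscle.

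Srsf1, the first SR protein described, was at 45.1, 53.5 and 52.1 TPM against 44.7, 39.9 and 38.5 TPM, and its groups lay side by side without overlap. Srsf2, known as SC35, was at 62.4, 60.0 and 55.9 TPM against 45.7, 55.8 and 55.2 TPM. Srsf11 was at 38.6, 42.3 and 37.9 TPM against 27.8, 32.2 and 37.1 TPM. In all 3 genes the homozygous values were the higher ones by a small margin, and all 3 signs turned after median centring. Srsf7, which also takes part in mRNA export, was at 14.2 to 17.0 TPM against 10.4 to 13.6 TPM. The groups overlapped in Srsf3, Srsf4, Srsf5, Srsf9 and Srsf10. Srsf5 was at 89.8, 93.2 and 82.4 TPM against 84.3, 53.8 and 63.2 TPM, with WT replicate 1 inside the homozygous range (log2 fold change 0.42, SE 0.18, limma adjusted p = 0.201).

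The Tra2 proteins are SR-like activators. Tra2b was at 19.5, 22.7 and 24.0 TPM in homozygous muscle and at 16.2, 20.9 and 12.0 TPM in WT, with a log2 fold change of 0.44, 0.24 without WT replicate 3, and overlapping groups. Tra2a was at 15.9 to 24.3 TPM against 10.9 to 19.3 TPM. Neither passed the test, with limma adjusted p-values of 0.224 and 0.306.

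Among the hnRNPs, 10 of 20 had homozygous libraries above all WT libraries, beside 34.7% of all genes, and the median log2 fold change was 0.26 in both. Hnrnpu, a nuclear scaffold protein that binds RNA and chromatin, was at 65.9, 89.6 and 74.1 TPM against 56.6, 55.5 and 54.5 TPM. The WT values lay within 3 TPM of each other, and the homozygous values were spread more widely. Its log2 fold change was 0.44 (SE 0.14, limma adjusted p = 0.168). Hnrnpul2, a relative of Hnrnpu, was at 20.0, 20.9 and 19.5 TPM against 15.2, 15.6 and 12.9 TPM. Hnrnpa1, which antagonises SR proteins at many exons, was at 52.4, 52.5 and 50.4 TPM against 41.3, 40.5 and 31.9 TPM, and the fold change on the log2 scale was 0.45 (SE 0.14, limma adjusted p = 0.168). Its homozygous values were nearly equal and its WT values were not. A processed copy of Hnrnpa1 in the table, Hnrnpa1l2-ps, was at 0 to 0.28 TPM, and reads shared with such copies make the level of Hnrnpa1 less certain.

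Hnrnpk, which binds C-rich RNA and DNA, was at 102, 110 and 87.2 TPM against 78.2, 85.9 and 55.4 TPM (log2 fold change 0.46, 0.27 without WT replicate 3). Hnrnpll, a regulator of Ptprc splicing in lymphocytes, was at 8.18, 8.59 and 8.40 TPM against 6.19, 7.60 and 3.49 TPM. Its log2 fold change was 0.53, and 0.26 without WT replicate 3. Hnrnpr was at 8.96, 14.7 and 9.48 TPM against 7.30, 10.5 and 4.69 TPM, with a log2 fold change of 0.53, and 0.27 without that library. In these 3 genes the WT minimum came from WT replicate 3, and the groups of Hnrnpr overlapped. At the other end, Hnrnpa2b1 was at 280, 262 and 246 TPM against 236, 276 and 235 TPM, and its log2 fold change was 0.08 (SE 0.13, limma adjusted p = 0.690), and 0.04 without WT replicate 3. Hnrnph1, which binds runs of G, was at 69.4 to 87.1 TPM against 64.3 to 86.4 TPM, and Hnrnpm at 48.2 to 54.2 TPM against 44.9 to 50.9 TPM. The ranges of Hnrnpc, Hnrnpd and Hnrnpl overlapped as well.

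Of the Mbnl, Celf, Rbfox and Rbm genes, only Rbm20 had groups that did not overlap. Rbm20, a repressor of titin exons, was at 13.8, 17.4 and 22.0 TPM in homozygous muscle and at 11.0, 12.9 and 10.9 TPM in WT. Its log2 fold change was 0.56 (SE 0.18, limma adjusted p = 0.170), the highest of the set, and 0.52 without WT replicate 3. Mbnl1 was at 90.6, 95.8 and 105 TPM against 90.4, 102 and 50.4 TPM. Its log2 fold change was 0.32, and 0.01 without WT replicate 3, the only WT library far below the homozygous range. Mbnl2 was at 24.2, 35.7 and 34.0 TPM against 23.1, 30.1 and 20.6 TPM.

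Celf2 was at 9.59, 9.49 and 8.84 TPM in homozygous muscle and at 12.4, 11.8 and 5.04 TPM in WT. Its log2 fold change was 0.03 with all libraries and -0.34 without WT replicate 3, when it was the 1 regulator with homozygous libraries below all WT libraries (its lowest limma adjusted p under any setting was 0.181). Celf1, its broadly expressed relative, was at 16.3, 19.6 and 18.9 TPM against 13.8, 17.5 and 10.1 TPM. Rbfox1, which binds the motif TGCATG, was at 63.3, 46.8 and 51.0 TPM against 60.5, 50.2 and 51.2 TPM. Homozygous and WT values of Rbfox1 were interleaved (log2 fold change -0.01, SE 0.15, limma adjusted p = 0.957, and -0.05 without WT replicate 3). Rbfox2 was at 8.42 to 12.4 TPM against 7.06 to 9.09 TPM and Rbm24 at 50.8 to 56.7 TPM against 44.0 to 51.4 TPM, both with a small overlap.

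The summed markers of slow fibres and of the nerve sheath were higher in every homozygous library. The 11 slow-fibre markers summed to 1902, 9715 and 2241 TPM in homozygous muscle and to 1738, 1123 and 245 TPM in WT. Of these markers, 7 of 11 were not overlapping and higher. The 5 Schwann cell markers summed to 28.8 to 105 TPM against 16.1 to 25.1 TPM, with all 4 tested markers not overlapping and higher. The share of all tested genes that did so was 34.7%. The sums of the adipocyte, blood, immune, endothelial, fibroblast and satellite cell markers overlapped between the groups. Neuron markers reached at most 0.16 TPM in summed level, and Elavl4 was at 0 in all libraries. With the slow-fibre level as a covariate, the median log2 fold change of the regulators was 0.15, and 0 regulators passed in limma. This level, the mean log2 of TPM + 1 of these markers, was 6.447, 8.867 and 6.792 in homozygous muscle and 6.370, 5.783 and 3.405 in WT. Its groups did not overlap, so this level and genotype cannot be told apart. The median of all genes with this covariate is not given. The part of Schwann cells in the regulator levels was not tested.

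Other genes of the splicing machinery were described by lists of their roles. The shares of all genes to read them against are 34.7% with homozygous libraries above all WT libraries and 7.3% called with array weights, and the median log2 fold change of all genes was 0.26. Of 33 core spliceosome genes 0 passed and 11 (33.3%) lay above, with a median of 0.16, below that of all genes. Sf3b1, which recognises the branch point, was at 37.2, 36.7 and 34.6 TPM against 25.2, 25.6 and 23.5 TPM, and Prpf8, at the catalytic centre, was at 17.7, 17.2 and 16.0 TPM against 13.6, 13.5 and 10.6 TPM. The kinases that phosphorylate SR proteins and the factors that import them had a median of 0.42 over 10 genes, with 6 above and 0 passing. Clk1, a kinase that releases SR proteins from nuclear speckles, was at 60.8, 68.6 and 59.5 TPM against 38.9, 43.9 and 26.6 TPM. Clk4 was at 46.7, 64.7 and 63.8 TPM against 37.5, 37.9 and 29.9 TPM. Both kinases were higher in every homozygous library, with log2 fold changes of 0.80 (SE 0.19) for Clk1 and 0.71 (SE 0.17) for Clk4, and a limma adjusted p of 0.168 each. Of 27 other splicing regulators tested, 13 lay above, with a median of 0.31, led by Rbm5 (0.58) and the cold-inducible Rbm3 (0.56). Of 14 nonsense-mediated decay genes 7 lay above, with a median of 0.28, led by Casc3 (0.43) and Smg5 (0.40). None of these genes passed in limma. With array weights, 1 spliceosome gene, 3 kinase or import genes, 6 other regulators and 1 decay gene did.

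The isoforms of each regulator were then compared. Isoform values came from a transcript-level estimate that divides reads shared by several isoforms, so they are less certain than gene sums. Of the 195 regulator isoforms that passed the filter of 1 TPM, 0 were called by abundance, against a background of 0.0425% (9 of 21165), and 36 had an unadjusted p under 0.05 (background 15.7%). Rows of a gene with identical values were counted separately here, and 28 of all 604 sets of such rows were in regulators. Celf1-206, Celf1-205, Hnrnpu-206 and Hnrnpu-203 each count more than once among the 36. Of 162 regulator isoforms tested for their share of the gene, 0 were called (background 0%, 0 of 22724), and 14 had an unadjusted p under 0.05 (background 9.14%). In 17 the homozygous shares were all higher and in 19 all lower, against backgrounds of 8.86% and 7.98%.

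The 5 isoforms with the smallest p belonged to 4 genes. Srsf9-202, a transcript without an annotated reading frame, made up 0%, 0.10% and 0% of Srsf9 in the homozygous libraries and 7.28%, 11.4% and 10.6% in WT. It was nearly missing from 1 group and present in all libraries of the other, at no more than 1.38 TPM (log2 odds change -1.999, SE 0.40, limma adjusted p = 0.284). Celf1-206, a protein-coding form, was summed with an unannotated row of identical values, so that both together made up 21.6%, 27.8% and 18.2% of Celf1 against 6.09%, 6.51% and 0%, a log2 odds change of 2.02 (SE 0.42, limma adjusted p = 0.293). Srsf2 had a pair of isoforms that went in opposite directions. Its protein-coding isoform Srsf2-206 was at 19.1%, 19.0% and 16.7% against 10.3%, 3.44% and 9.77%. Its decay-annotated isoform Srsf2-204 was at 1.16%, 1.18% and 3.54% against 6.89%, 5.58% and 28.1%. The decay-annotated Srsf4-203 was higher in homozygous muscle, at 8.29%, 8.13% and 15.7% of Srsf4 against 2.31%, 2.70% and 3.79%.

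The protein-coding share of the regulators varied widely. Over the 30 regulators with both coding and noncoding isoforms, the median protein-coding share was 59.4% of annotated TPM, and over the 11 SR and Tra2 genes among them it was 45.8%. The median over all 7328 such genes was 85.7%. A share below 50% was found in 11 of the 30 regulators and in 14.5% of all genes. Hnrnpu, Srsf3 and Srsf11 had the lowest shares. In Hnrnpu it was 12.2%, 14.7% and 13.3% in homozygous muscle and 14.7%, 16.3% and 11.5% in WT.

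**Figure D3:**
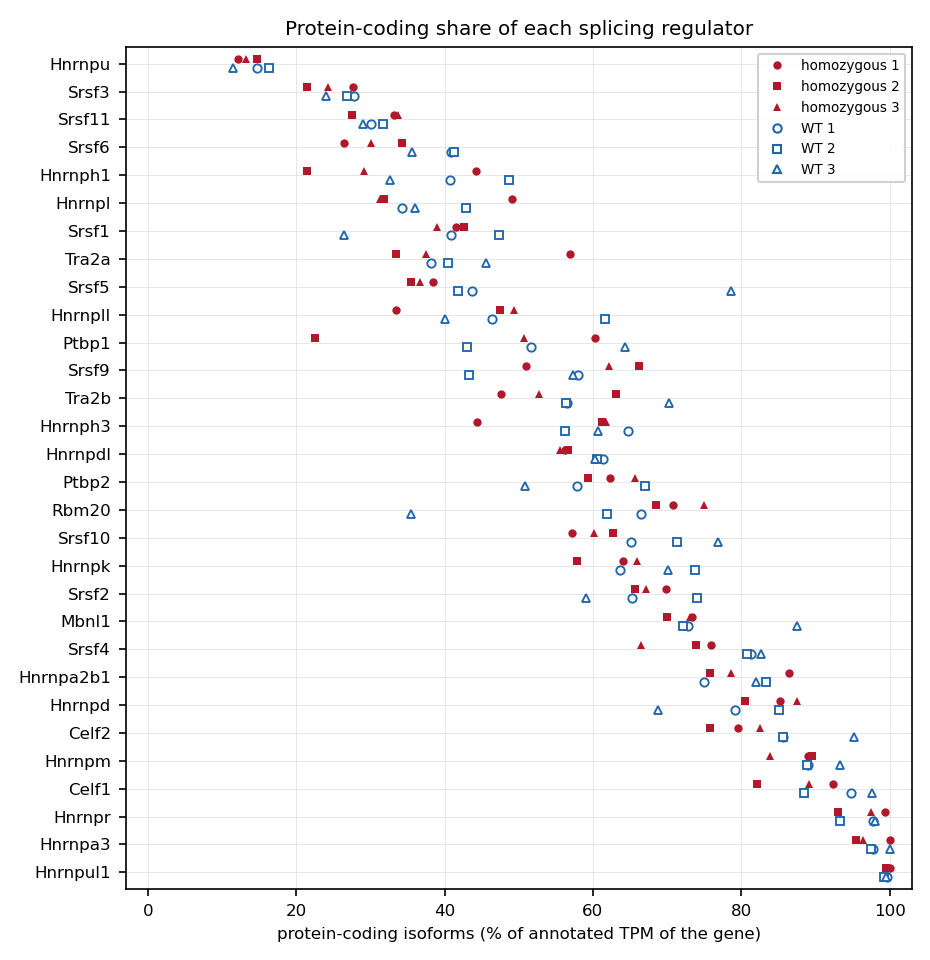
Share of annotated TPM in protein-coding isoforms (%) for the 30 regulators with both kinds of isoform, with 1 point per library. Hnrnpu lies lowest, at 11.5% to 16.3%, and 11 regulators have a mean below 50%.

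Summed over SR and Tra2 genes, protein-coding isoforms made up 47.5%, 46.1% and 45.8% of TPM in homozygous muscle and 49.0%, 51.2% and 53.9% in WT, and the groups did not overlap. Their decay-annotated isoforms overlapped, at 13.2% to 15.5% against 14.7% to 21.2%, as did retained-intron isoforms. Transcripts annotated as processed, without a reading frame, were higher in every homozygous library, at 9.61%, 9.26% and 9.67% against 8.86%, 4.78% and 3.32%. The protein-coding share of the hnRNP genes overlapped, at 69.2% to 76.5% against 72.9% to 77.3%. In the test of single genes, 0 of 30 were called (background 0%, 0 of 7328), and 1, Celf2, had an unadjusted p under 0.05 (background 8.24%). The coding share was lower in all homozygous libraries in 6 regulators (background 7.71%) and higher in 1 (background 6.1%). Celf2 was at 79.5%, 75.8% and 82.5% against 85.6%, 85.7% and 95.2% (log2 odds change -0.76, SE 0.32, limma adjusted p = 0.589). Srsf4 was at 75.9%, 73.9% and 66.4% against 81.3%, 80.7% and 82.6%, and Srsf6 at 26.4%, 34.3% and 30.1% against 40.9%, 41.3% and 35.7%. Rbm20 was the gene with the higher share, at 70.8%, 68.5% and 74.9% against 66.5%, 61.9% and 35.5%. The nearest libraries of the groups of Rbm20 were at 68.5% and 66.5%, and WT replicate 3 was far below the others.

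Cassette exons show these choices at single sites. Inclusion was the TPM of isoforms with the exon, as a percentage of the TPM of isoforms with or without it between the same neighbouring exons. There were 50 such exons in 31 regulators and 4654 in all genes. None of the 50 were called (background 0%), the smallest limma adjusted p was 0.458, and 6 had an unadjusted p under 0.05 (background 9.5%). In 10 exons (20%) inclusion was higher in every homozygous library, against a background of 9.45%, and in 5 (10%) it was lower, against 7.09%. Without WT replicate 3, there were 11 higher and 6 lower, with backgrounds of 13.8% and 11.4%. Of the 10, 2 are the same Mbnl1 exon, counted with and without a neighbouring exon.

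Some coding exons that differ between isoforms of the regulators are shown because the results below turn on them. They are given 5′ to 3′ on the transcribed strand, from GENCODE M21 transcripts on GRCm38. In the pair of 36-nt exons of Mbnl1 and Mbnl2, capitals mark the 5 positions that differ between the paralogues, and 31 of 36 are identical.
Mbnl1 54 nt, chr3:60614683-60614736, plus strand: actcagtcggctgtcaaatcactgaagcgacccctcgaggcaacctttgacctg
Mbnl1 36 nt, chr3:60621423-60621458, plus strand: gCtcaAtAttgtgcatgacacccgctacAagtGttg
Mbnl2 36 nt, chr14:120403336-120403371, plus strand: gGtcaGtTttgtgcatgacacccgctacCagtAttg
Hnrnpa2b1 36 nt, chr6:51467391-51467426, minus strand: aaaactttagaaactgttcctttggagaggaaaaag
Hnrnpd 57 nt, chr5:99976534-99976590, minus strand: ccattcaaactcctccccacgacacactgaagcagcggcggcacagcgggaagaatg
Ptbp1 78 nt, chr10:79860117-79860194, plus strand: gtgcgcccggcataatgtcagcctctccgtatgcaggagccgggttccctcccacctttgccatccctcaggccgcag
Ptbp2 34 nt, chr3:119724612-119724645, minus strand: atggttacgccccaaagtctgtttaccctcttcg

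The 36-nt exons of Mbnl1 and Mbnl2 both hold the letters TGCATG, from position 12 of the exon. These are the letters of the Rbfox motif. Among 34 cassette exons of exactly 36 nt, these 2 (5.88%) hold it on the transcribed strand, and the same 2 were found when both strands were searched. Of all 4528 distinct cassette exons, 3.2% hold it on the transcribed strand and 6.63% on either strand. The other exons printed here do not contain these letters.

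Inclusion of the 54-nt exon of Mbnl1 was 53.8%, 55.5% and 63.8% in homozygous muscle and 69.2%, 73.2% and 83.6% in WT. Every homozygous library was below every WT library, with means of 57.7% ± 5.35 and 75.3% ± 7.43 (SD, n = 3 each). The log2 odds change was -1.17 (SE 0.42, limma adjusted p = 0.502), and -0.84 without WT replicate 3. The 36-nt exon of Mbnl1, in isoforms that keep a neighbouring 95-nt exon, went the other way, at 54.1%, 58.7% and 51.0% against 41.2%, 43.7% and 17.7%. In isoforms without that neighbour it was at 36.3%, 20.6% and 31.1% against 17.0%, 15.6% and 4.85%, from isoforms of 2.33 to 9.39 TPM. Its log2 odds change with the neighbour was 1.27 (SE 0.53, limma adjusted p = 0.510), and 0.70 without WT replicate 3. The 2 exons are not independent measurements. Isoform Mbnl1-214 holds the 54-nt exon and skips the 36-nt exon, and Mbnl1-201 does the reverse, so their opposite signs follow in large part from these isoforms. Mbnl1-214 was at 24.4, 23.7 and 29.3 TPM in homozygous muscle against 33.7, 34.9 and 32.8 TPM, and Mbnl1-201 at 16.1, 16.6 and 13.9 TPM against 12.6, 10.3 and 5.80 TPM. Neither isoform passed the abundance test (limma adjusted p = 0.292 and 0.306). The matching 36-nt exon of Mbnl2 was at 84.5%, 85.3% and 91.6% against 94.0%, 94.7% and 84.5%, and its groups overlapped.

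The 36-nt exon of Hnrnpa2b1 encodes the stretch that sets the B1 protein apart from A2. It was included at 19.9%, 17.1% and 15.1% in homozygous muscle and at 14.5%, 13.7% and 14.5% in WT, so A2 was the main form in all 6. The groups did not overlap, by a margin of under 1 percentage point (log2 odds change 0.33, SE 0.33, limma adjusted p = 0.775). The 57-nt exon of Hnrnpd, which sets apart forms of the mRNA-decay factor AUF1, was at 60.7%, 54.0% and 60.4% against 64.4%, 70.9% and 70.4%. The 78-nt exon of Ptbp1, whose presence changes the strength of the repressor, was at 79.1%, 75.9% and 75.0% against 69.2%, 73.4% and 57.6%, from isoforms of only 2.73 to 3.53 TPM. The 34-nt exon of Ptbp2, whose skipping leads to decay and is promoted by Ptbp1, was at 63.0%, 55.1% and 65.2% against 57.7%, 64.1% and 55.0%, with overlapping groups.

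**Figure D4:**
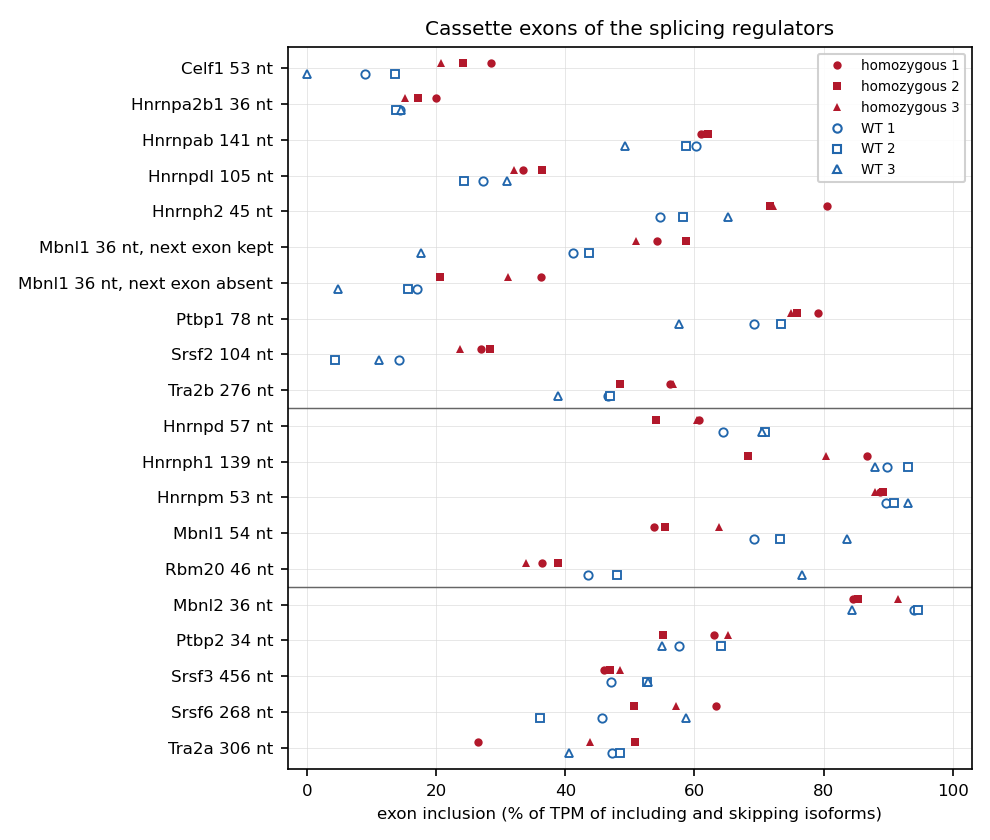
Inclusion (%) of the regulator cassette exons whose groups did not overlap (10 higher in homozygous muscle, then 5 lower) and of 5 overlapping exons for comparison, with 1 point per library (next exon: the 95-nt neighbour). The 54-nt exon of Mbnl1 lies at 53.8% to 63.8% in homozygous muscle and at 69.2% to 83.6% in WT.

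Poison exons, which bring in a stop codon, showed no common direction. In Tra2b the 276-nt poison exon was included at 56.3%, 48.5% and 56.7% in homozygous muscle and at 46.6%, 46.8% and 38.9% in WT, and the groups did not overlap. In Tra2a the 306-nt exon was at 26.5%, 50.9% and 43.8% against 47.2%, 48.5% and 40.6%, and in Srsf3 the 456-nt exon was at 46.0%, 47.0% and 48.4% against 47.1%, 52.7% and 52.9%. Both overlapped. In Srsf6 the 268-nt exon was at 63.3%, 50.7% and 57.2% against 45.6%, 36.0% and 58.8%, and only WT replicate 3 lay within the homozygous range. In Srsf2 a 104-nt noncoding exon was at 26.9%, 28.4% and 23.7% against 14.3%, 4.32% and 11.2%. This was the smallest p of the 50 exons (log2 odds change 1.72, SE 0.48, limma adjusted p = 0.458). The exon sets Srsf2-202 and Srsf2-206 against Srsf2-201 and Srsf2-204, so it is not separate from the 2 isoform shares of Srsf2 given above. Each side holds a coding and a decay-annotated isoform, so its inclusion does not measure decay. In Rbm20 a 46-nt exon found in a decay-annotated isoform was at 36.3%, 38.9% and 34.0% against 43.5%, 48.0% and 76.7%. Its log2 odds change was -1.11, and -0.53 without WT replicate 3. The exons of Rbm20 and Srsf6 each set a decay-annotated isoform against a coding one, so they are not separate from the coding shares given above. A 53-nt noncoding exon of Celf1, found in no decay-annotated isoform, was at 28.5%, 24.1% and 20.7% against 8.92%, 13.6% and 0%. The isoforms behind it summed to 1.85 to 13.8 TPM.

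The remaining exons that separated the groups were in hnRNP genes. Inclusion was higher in homozygous muscle in Hnrnph2 (45 nt, 71.8% to 80.5% against 54.7% to 65.2%), Hnrnpdl (105 nt, 32.0% to 36.3% against 24.3% to 30.9%) and Hnrnpab (141 nt, 61.0% to 62.1% against 49.2% to 60.2%). It was lower in Hnrnph1 (139 nt, 68.3% to 86.8% against 88.0% to 93.1%) and in Hnrnpm (53 nt, 88.0% to 89.2% against 89.7% to 93.0%). The margins of Hnrnpdl, Hnrnpab, Hnrnph1 and Hnrnpm were under 2 percentage points. The Hnrnpdl exon sets decay-annotated and retained-intron isoforms against a coding one. It is thus not separate from the coding share of Hnrnpdl, at 56.2%, 56.6% and 55.5% in homozygous muscle against 61.3%, 60.5% and 60.2%.

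Exons of genes known in muscle as targets of these regulators were read in the same way. The list gave 68 cassette exons in 25 genes. Of these, 0 were called by limma, 9 had an unadjusted p under 0.05, 12 (17.6%) were higher in every homozygous library and 7 (10.3%) lower. These are not all separate observations: of the 12, 2 are Neb exons with the same isoforms and the same values and 4 are in Camk2b, and of the 7, 2 are in Ktn1. The backgrounds are those given above for all cassette exons. The exons described next were chosen from the list after their values were seen.

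The 42-nt exon of Atp2a1, the calcium pump of fast fibres, marks the adult form of the pump. Its inclusion was 95.2%, 94.7% and 91.0% in homozygous muscle and 85.9%, 76.7% and 50.8% in WT. The 57-nt exon of Cacna1s, the voltage sensor of excitation-contraction coupling, is also included in adult muscle, and was at 92.2%, 96.1% and 91.7% against 85.9%, 79.8% and 42.7%. In both exons WT replicate 3 was far below the other WT libraries, and the log2 odds changes of 2.48 (SE 0.70) and 2.43 (SE 0.80) were 1.77 and 1.54 without it. The limma adjusted p was 0.458 for each. A 75-nt exon of Camk2b, a calcium-dependent kinase, was at 91.9%, 92.6% and 94.7% against 78.8%, 83.0% and 76.8%, with WT replicate 3 close to the other WT libraries. The 78-nt exon of titin (Ttn) was at 24.8%, 29.3% and 18.2% against 6.45%, 5.15% and 5.31%, from isoforms of 3.27 to 12.9 TPM.

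Inclusion was lower in homozygous muscle in 24-nt exons of a pair of related transcription factors that drive muscle genes. That of Mef2c was at 20.9%, 20.5% and 16.4% against 28.9%, 24.2% and 47.1%, and that of Mef2a at 85.2%, 84.7% and 85.9% against 90.3%, 91.0% and 98.6%. The homozygous values were close together in both, and the WT values were spread by WT replicate 3. Their log2 odds changes of -1.03 and -1.01 were -0.60 and -0.63 without that library. Neither passed, with limma adjusted p-values of 0.534 and 0.555. A 21-nt exon of Mef2d, a further listed relative, was at 16.3%, 12.3% and 18.0% against 15.4%, 18.0% and 9.74%, with overlapping groups. The gene sum of Camk2b was also higher, at 64.9, 71.7 and 69.6 TPM against 50.4, 39.3 and 34.9 TPM, as was that of Pdlim3, a Z-disc protein, at 506, 680 and 790 TPM against 386, 353 and 385 TPM. Of 33 target genes tested 0 passed in limma, 8 passed with array weights (7.3% of all genes did), and 16 lay above all WT libraries (34.7% of all genes did).

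**Figure D5:**
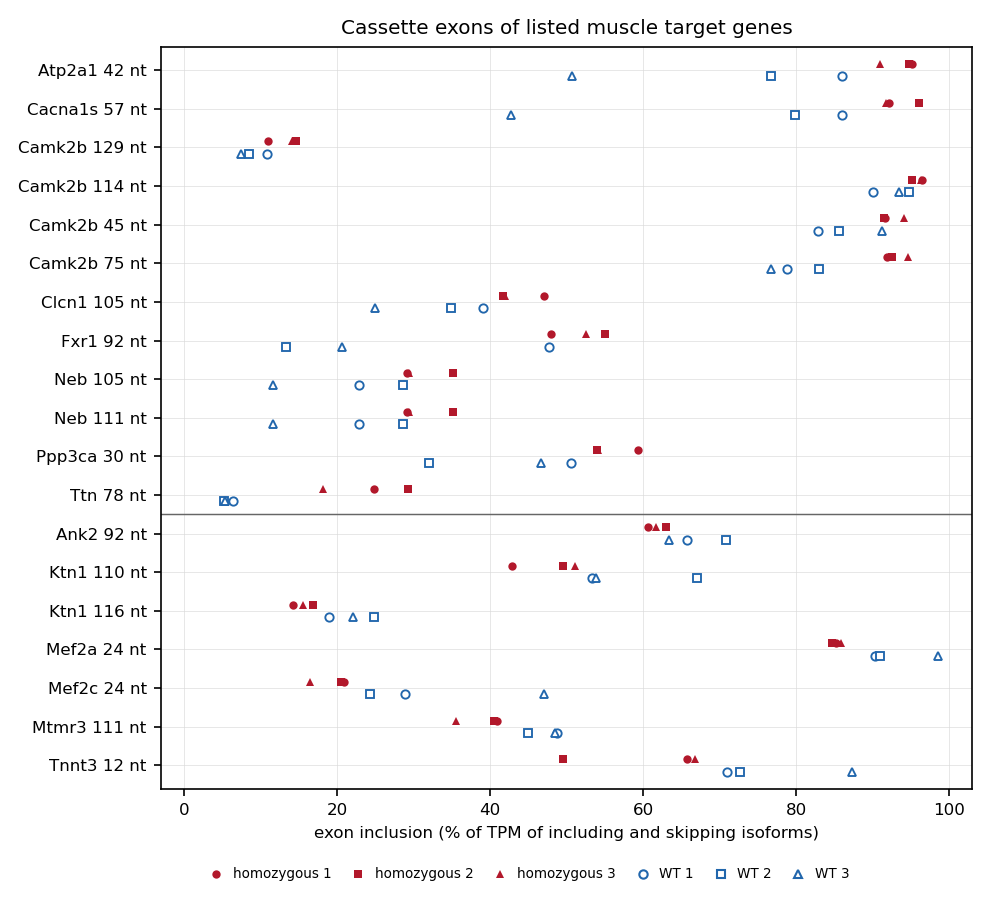
Inclusion (%) of the cassette exons of listed muscle target genes whose groups did not overlap, 12 higher in homozygous muscle above the line and 7 lower below it, with 1 point per library. The Atp2a1 exon lies at 91.0% to 95.2% in homozygous muscle and at 50.8% to 85.9% in WT, where WT replicate 3 is lowest.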

How the data were processed

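The authors deposited a transcript table in TPM, with libraries as columns, per the file headers. The submitters' processing notes name FastQC, Trimmomatic, HISAT2, kallisto and mm10; which step made the table, and the annotation release, are not stated there. TPM is scaled to 1000000 per library, so depth is unknown and no counting interval is given. All columns matched a library (0 unmatched).

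Isoform rows were summed per gene. Rows of a gene with identical values were merged for isoform shares (28 sets in 3 regulators). Structures and biotypes came from GENCODE M21 (GRCm38), which matched 103635 of 105129 transcripts without version, and 31 isoforms of the tested regulators had none. Coding shares leave these out.

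Tests used limma 3.58.1 in R 4.3.3 (trend, robust), with genotype alone in the model, two-sided, adjusted over all features (threshold 0.05), after a filter of 1 TPM in 3 libraries. Abundance was log2(TPM + 1), which understates changes of low genes. Shares (5% or more in 3 libraries), coding shares and exon inclusion were log2 odds with an offset of 0.5 TPM. The scripts were tested on simulated data. Python 3.11.15 did the rest.

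The members and lists were chosen with earlier results of these data known. Named genes were 30 fixed regulators, the 5 highest and 5 lowest log2 fold changes (34 in all), the 5 isoforms with the smallest p for share, the 3 genes with the smallest p for coding share, and 2 genes per related list. Of the listed target genes, 1 is not reported here. The exon test, and the recounts of groups that do not overlap under other settings, were added after seeing the data, and exons were named for groups that do not overlap. The overlapping ones were chosen as known poison or paralogue exons. Same-numbered libraries did not deviate together (correlations -0.07, 0.06 and -0.01), so numbers were not taken as pairs. Alternatives were other scalings, filters, pseudocounts, weights, covariates and leaving out each library.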

Additional observations from a re-analysis of the deposited data

How the results depend on the processing

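No regulator was called for gene sum, isoform abundance, isoform share, coding share or exon inclusion under any of the settings run, except 5 genes with array weights. With a replicate block 0 regulators were called in each test, and the replicate numbers pair no samples. The median log2 fold change, 0.29 as reported, was 0.010 after quantile normalization, -0.013 after median centring, 0.034 with a transcript-length trend removed and 0.15 with the slow-fibre covariate. That covariate did not overlap between the groups. The median of the regulators minus that of all genes, 0.02 as reported, was 0.17 with no filter. The 16 regulators with homozygous libraries above all WT libraries became 5, 3 and 1 under quantile normalization, median centring and length-trend removal, and between 16 and 28 when 1 library was left out (25 without homozygous replicate 1, 28 without WT replicate 2). Below all WT libraries there were 0 as reported, 1 after quantile normalization, and 0 to 1 when 1 library was left out (1, Celf2, without WT replicate 3). The 5 regulator exons with lower inclusion were 5 to 9 when 1 library was left out, with 9 without homozygous replicate 3. Leaving out a library can only add to such counts, in any gene. Of all genes, 34.7% lay above with all libraries and 42.1% without WT replicate 3. After quantile normalization 8.05% lay above and 7.34% below. Of all cassette exons, 7.09% were lower with all libraries and 11.4% without WT replicate 3. Shares of all genes under the other settings are not given, so these counts are not read as changes of the regulators.

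Of the 34 named regulators, 11 kept the sign of their log2 fold change in all 14 alternative settings and 23 did not. With the length trend removed the changed values were Celf2 -0.34, Hnrnpa2b1 -0.14, Hnrnpc -0.15, Hnrnph1 -0.14, Hnrnpl -0.080, Hnrnpm -0.15, Mbnl1 -0.026, Mbnl2 -0.025, Ptbp2 -0.076, Rbfox2 -0.046, Rbm24 -0.12, Srsf2 -0.043, Srsf3 -0.14 and Srsf4 -0.14. After median centring they were Celf2 -0.27, Hnrnpa2b1 -0.22, Hnrnpc -0.15, Hnrnpd -0.042, Hnrnph1 -0.21, Hnrnpl -0.15, Hnrnpm -0.18, Ptbp2 -0.14, Rbfox2 -0.0055, Rbm24 -0.10, Srsf1 -0.017, Srsf11 -0.0093, Srsf2 -0.11, Srsf3 -0.15, Srsf4 -0.18, Srsf7 -0.023 and Srsf9 -0.074. After quantile normalization they were Celf2 -0.28, Hnrnpa2b1 -0.16, Hnrnpc -0.13, Hnrnph1 -0.14, Hnrnpl -0.079, Hnrnpm -0.10, Ptbp2 -0.12, Rbm24 -0.030, Srsf2 -0.044, Srsf3 -0.14, Srsf4 -0.15, Srsf7 -0.0052 and Srsf9 -0.052. With the slow-fibre covariate they were Celf2 -0.51, Hnrnph1 -0.10, Hnrnpr -0.042, Mbnl1 -0.096, Ptbp1 -0.0097, Ptbp2 -0.13, Rbfox1 0.039, Srsf3 -0.0024 and Tra2a -0.037, and with array weights Celf2 -0.30. Leaving out 1 library gave -0.34 to 0.23 for Celf2, -0.0016 to 0.21 for Hnrnph1 and -0.14 to 0.078 for Rbfox1, and -0.61 to 0.10 for the log2 odds of the 306-nt exon of Tra2a. Without WT replicate 3 other values moved by over 1.5 times. Log2 fold changes went from 0.41 to 0.22 for Celf1, 0.40 to 0.21 for Srsf10, 0.38 to 0.18 for Tra2a, 0.33 to 0.22 for Mbnl2, 0.28 to 0.17 for Srsf7, 0.26 to 0.14 for Hnrnpd, 0.16 to 0.040 for Srsf3, 0.16 to 0.075 for Hnrnpc and 0.16 to 0.060 for Ptbp2, and up from 0.15 to 0.25 for Hnrnpl, 0.13 to 0.23 for Srsf4 and 0.23 to 0.34 for Srsf9. Log2 odds went from -2.33 to -1.53 for the Srsf2-204 share, 0.99 to 0.47 for the Rbm20 coding share, and, for cassette exons, 0.50 to 0.30 for Ptbp1, 0.32 to 0.12 for Hnrnpab, -0.38 to -0.22 for Hnrnpm, -0.55 to -1.02 for Mbnl2, 0.12 to 0.014 for Ptbp2 and 0.57 to 0.91 for Srsf6. The cause of these changes was not tested. With 3 libraries a group and depth unknown, isoforms of a few TPM, such as those behind the Ptbp1 exon and the Srsf9 share, carry limited precision.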
